A study of Magallana angulata with 9 samples.

Results

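The 150 genes described here had higher transcript levels in D-larvae exposed to a cryoprotectant solution and lower levels in cryopreserved D-larvae, each against fresh larvae, in all 3 larvae pools of the Portuguese oyster Crassostrea angulata. They were selected on these measured values among 28372 genes listed. The 17328 genes that averaged 50 counts or more in the 9 libraries were considered, and the 1948 of them with a mean rise of more than 0.2 log2 in exposed larvae were scored. The score took, within each pool, the smaller of the rise in exposed larvae and the fall in cryopreserved larvae, and then the lowest of the 3 pools. A score above 0 was found for 718 genes, and the 150 with the highest scores are the members. Both differences were thus used in the choice, so the sizes and counts below describe the members and are no test of the pattern. Rise and fall here name the rule's differences in log2 level, whether or not a gene passed a test.

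Whole transcriptomes were sequenced from larvae of artificial fertilizations that were pooled, concentrated and kept cold, and each of the 3 pools gave 1 library per condition. Cryopreserved larvae were exposed to the cryoprotectants, frozen in a programmable freezer in straws of 30000 larvae and stored for 2 months in liquid nitrogen. They were thawed at 37 °C for 10 s, left for 1 h in filtered seawater at room temperature, collected on a mesh, washed and concentrated. CPA exposed larvae (CPA, cryoprotectant agents) were held for 3 min at 4 °C in 0.2 M sucrose, 1% polyvinylpyrrolidone and 10% dimethyl sulfoxide and then diluted in seawater. Fresh larvae were only concentrated in filtered seawater. Freezing, storage, thawing, the 1 h recovery at room temperature, collection and washing all separate cryopreserved from CPA exposed larvae. Their effects cannot be told apart here. Every library holds RNA of a whole pool of larvae from several parents, in which fewer cells of a type cannot be told apart from less RNA per cell. The reads were mapped to the genome of the related species Crassostrea gigas.

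The D-larva is the first shelled larval stage of bivalves, named after the shape of its hinged valves, and it swims and feeds with a ciliated velum. Dimethyl sulfoxide enters cells and limits the growth of ice crystals, whereas sucrose and polyvinylpyrrolidone stay outside the cells, where sucrose draws water out of them before freezing. Freezing and thawing can damage membranes by ice and by osmotic stress. The genes are given by NCBI gene numbers. Of these numbers, 0 occur in the gene table of the C. angulata assembly ASM2561291v2, which was the only annotation used, so no gene names, roles, sequences or positions were assigned and the larval tissue was not checked by marker genes. Only 4 members are therefore given by number, and others by their rank in the score.

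The members took up between 0.187% and 0.397% of the counts of the cryopreserved libraries, between 2.09% and 2.21% in the CPA exposed libraries and between 1.49% and 1.66% in the fresh libraries. The 3 conditions did not overlap in this share. Library totals ran from 22367780 to 24440543 counts in cryopreserved larvae, from 33643297 to 45990672 in CPA exposed larvae and from 24482043 to 45051399 in fresh larvae. Within each pool, depth had the same order as the levels of the members. In the mapping rates given by the study, too, CPA exposed was highest and cryopreserved lowest within each pool. The parts of depth and of mapping rate in the choice of the members were not tested beyond thinning. Thinning does not act on mapping. With all libraries thinned to the depth of the smallest, the rule kept 130 of the 150 members. The members' median log2 differences were then 0.51 for CPA exposed minus fresh and -2.66 for cryopreserved minus fresh. Random thinning keeps the ratios between libraries on average, so these values bear on counting noise only.

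**Figure D1:**
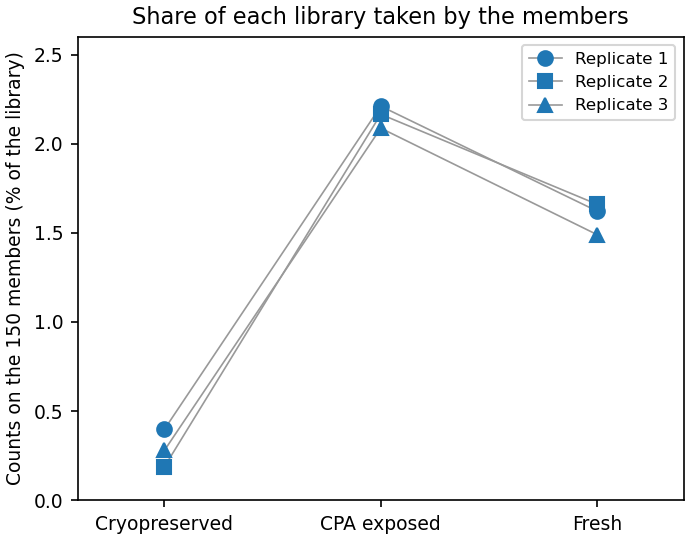
Share of each library's counts that fell on the 150 members (y axis, % of the library) in cryopreserved, CPA exposed and fresh larvae (x axis). Points are the 9 libraries and grey lines join the libraries of a pool. The share lies between 0.187% and 0.397% in cryopreserved, between 2.09% and 2.21% in CPA exposed and between 1.49% and 1.66% in fresh larvae.

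Levels are normalised read counts scaled to library size (CPM), and differences are in log2 CPM with a prior count of 2, which understates the fold of genes with few counts. The member of rank 1 had 0.693, 0.299 and 0.559 CPM in cryopreserved larvae of pools 1, 2 and 3, against 14.0, 7.94 and 12.8 CPM in CPA exposed larvae and 7.43, 4.58 and 6.45 CPM in fresh larvae. All 3 CPA exposed libraries were above all 3 fresh libraries, and no cryopreserved library came near either group. Its mean log2 difference was 0.89 for CPA exposed minus fresh (1.86-fold higher) and -3.46 for cryopreserved minus fresh (11.0-fold lower).

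Gene 105335083, of rank 2, was one of the 2 members named for the size of their fall. It had 12.4, 2.39 and 10.1 CPM in the cryopreserved libraries of pools 1, 2 and 3, 476, 170 and 332 CPM in the CPA exposed libraries, and 244, 100.1 and 186 CPM in the fresh libraries. The CPA exposed and fresh ranges overlapped between pools although exposed larvae were higher within every pool, and pool 2 was lowest in all 3 conditions. It averaged 8.29 ± 5.23 CPM in cryopreserved, 326 ± 153 CPM in CPA exposed and 177 ± 72.4 CPM in fresh larvae (SD, n = 3 each). The mean differences amount to 24.5-fold lower in cryopreserved and 1.81-fold higher in CPA exposed larvae than in fresh larvae. In edgeR's quasi-likelihood fit of all genes, the log2 fold change of cryopreserved over fresh larvae was -4.42 (SE 0.67, Benjamini-Hochberg adjusted p = 0.00878), and that of cryopreserved over CPA exposed larvae was -5.30 (SE 0.70, adjusted p = 0.00383).

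Gene 105349083, of rank 25, had the largest mean fall of all members and also of all 17328 genes with at least 50 counts on average. Its levels were 2.26, 0.647 and 0.731 CPM in cryopreserved, 84.8, 36.6 and 43.9 CPM in CPA exposed and 58.5, 21.1 and 20.1 CPM in fresh larvae of pools 1, 2 and 3. Pool 1 was the highest in every condition, so that its fresh library exceeded the CPA exposed libraries of the other pools, while the cryopreserved libraries lay far below all others. The means were 1.21 ± 0.91 CPM in cryopreserved, 55.1 ± 26.0 CPM in CPA exposed and 33.2 ± 21.9 CPM in fresh larvae (SD, n = 3 each). The mean log2 difference of cryopreserved minus fresh was -4.74 (26.8-fold lower) and that of CPA exposed minus fresh was 0.82 (1.76-fold higher). The edgeR log2 fold changes were -4.77 for cryopreserved over fresh (SE 0.68, adjusted p = 0.00705) and -5.50 for cryopreserved over CPA exposed larvae (SE 0.70, adjusted p = 0.00328).

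The 2 members with the largest rise in exposed larvae had smaller falls in cryopreserved larvae than the 2 genes above. Those 2 genes were named for their large falls, so nothing is read from this difference. Gene 109619713, of rank 5, had 0.277, 0.0498 and 0.344 CPM in cryopreserved larvae of pools 1, 2 and 3, 4.66, 1.24 and 5.47 CPM in CPA exposed larvae, and 1.59, 0.737 and 2.93 CPM in fresh larvae. It is a gene of low counts, with 6, 1 and 8 counts in the cryopreserved libraries, and the value of pool 2 lies under the 3 counts that a count of 0 allows for. Exposed larvae were higher than fresh larvae within each pool, by 1.04 log2 on average (2.05-fold), but pool 2 had less after exposure than pools 1 and 3 had when fresh. The means were 0.224 ± 0.154 CPM in cryopreserved, 3.79 ± 2.24 CPM in CPA exposed and 1.75 ± 1.11 CPM in fresh larvae (SD, n = 3 each).

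Gene 105328843, of rank 4, had the second largest rise. Its levels were 17.1, 2.84 and 7.35 CPM in cryopreserved, 144, 54.1 and 83.2 CPM in CPA exposed and 71.4, 32.8 and 42.9 CPM in fresh larvae. The cryopreserved libraries were below all fresh libraries, while the CPA exposed and fresh ranges overlapped because pool 1 was high and pool 2 low throughout. The means were 9.09 ± 7.28 CPM in cryopreserved, 93.8 ± 45.9 CPM in CPA exposed and 49.1 ± 20.003 CPM in fresh larvae (SD, n = 3 each). The mean differences were 1.86-fold higher in CPA exposed and 6.49-fold lower in cryopreserved than in fresh larvae.

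Neither gene passed the edgeR test of cryopreserved against fresh larvae without the pools as a factor. For 109619713 the log2 fold change was -2.94 (SE 0.81, adjusted p = 0.0742), and for 105328843 it was -2.43 (SE 0.63, adjusted p = 0.0611). With the pool number as a block in the fit, both did, with adjusted p-values of 0.000768 for 109619713 and 0.000424 for 105328843. Against CPA exposed larvae both were called without the block, with log2 fold changes of -4.05 (SE 0.83, adjusted p = 0.0208) for 109619713 and -3.37 (SE 0.65, adjusted p = 0.0170) for 105328843. The call of 105328843 was lost without the CPA exposed library of pool 1 (adjusted p = 0.0569) and without the cryopreserved library of pool 3 (0.0595). That of 109619713 was lost without the CPA exposed library of pool 1 (0.0651) or pool 3 (0.0582), without the cryopreserved library of pool 1 (0.0672) or pool 2 (0.0538), and in limma-voom (0.0694).

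None of the 4 members passed the test of CPA exposed against fresh larvae in edgeR without the block. The log2 fold changes were 1.10 (SE 0.69) for 109619713, 0.93 (SE 0.60) for 105328843, 0.73 (SE 0.56) for 105349083 and 0.88 (SE 0.58) for 105335083, each with an adjusted p of 0.999991. In a fit of the 6 CPA exposed and fresh libraries with the block, the adjusted p-values were 0.0108 for 109619713, 0.000171 for 105328843, 0.00229 for 105349083 and 0.000152 for 105335083, at log2 fold changes between 0.82 and 1.10 that stayed under the threshold of 1.5. With the block in the fit of all 9 libraries, the adjusted p was 0.999764 for each of the 4 genes.

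**Figure D2:**
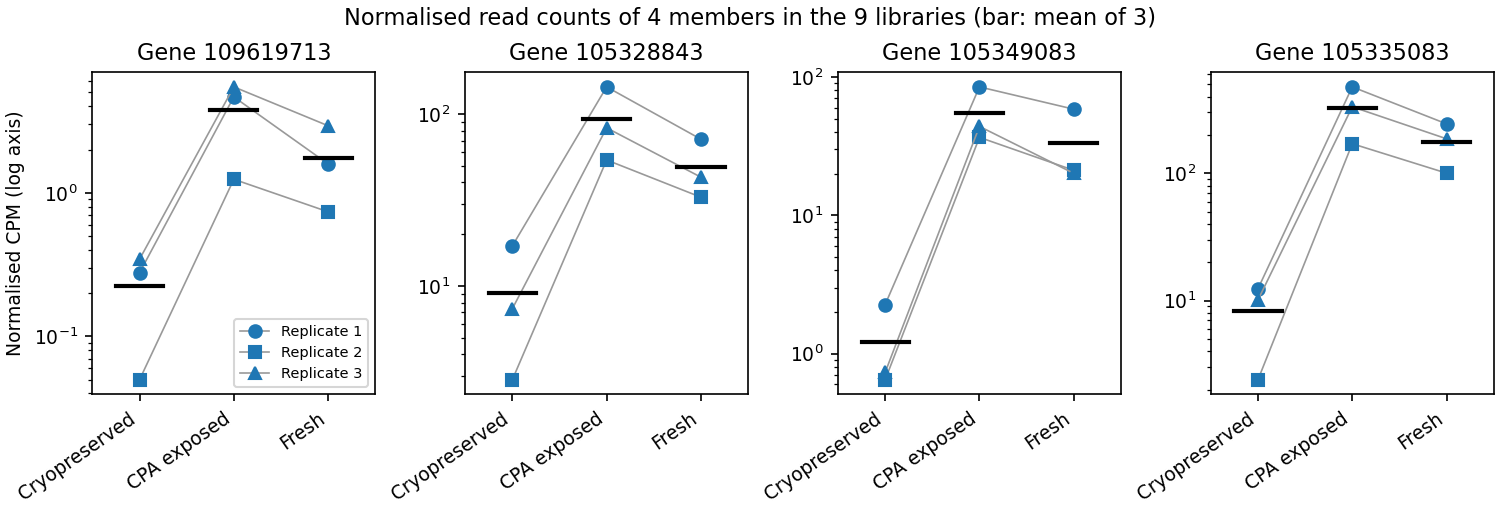
Normalised CPM (y axis, log scale) of genes 109619713, 105328843, 105349083 and 105335083 in cryopreserved, CPA exposed and fresh larvae (x axis). Points are single libraries, with a symbol for each pool joined by grey lines, and black bars are means of 3 libraries. Within every pool the CPA exposed library is the highest and the cryopreserved library the lowest of the 3, and the means of gene 105349083 are 1.21, 55.1 and 33.2 CPM.

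Over all 150 members, the rise in exposed larvae was small and the fall in cryopreserved larvae was large. The mean log2 difference of CPA exposed minus fresh ran from 0.32 to 1.04 with a median of 0.51, or 1.43-fold, beside a median of -0.01 over the 17328 genes. It exceeded 0.5 in 82 members, 0.7 in 16 and 1 in 1 member. The mean log2 difference of cryopreserved minus fresh ran from -4.74 to -0.65 with a median of -2.70, or 6.49-fold lower, beside -0.05 over the 17328 genes. The fall was larger than 1 log2 in 140 members, larger than 2 in 101, larger than 3 in 59 and larger than 4 in 8. At least 8-fold lower in cryopreserved and at least 1.5-fold higher in CPA exposed larvae, both against fresh larvae, were 16 members. Since both differences share the fresh libraries, their sizes are given side by side only.

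The score of nearly all members was their smallest rise, not their smallest fall. It was set by CPA exposed minus fresh in pool 1 for 60 members, in pool 2 for 64 and in pool 3 for 23, and by fresh minus cryopreserved for 1 member in each pool. Scores ran from 0.29 to 0.79 with a median of 0.39, and no gap set the last members apart from the genes that followed. Rank 149 had a score of 0.2955 (rise 0.54, fall -1.39) and rank 150 a score of 0.2937 (rise 0.46, fall -0.68). Just outside, rank 151 had 0.2936 (rise 0.30, fall -1.76) and rank 152 had 0.2930 (rise 0.33, fall -1.86).

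By pool, the median log2 difference of cryopreserved minus fresh over the members was -2.11 in pool 1, -3.38 in pool 2 and -2.53 in pool 3, and that of CPA exposed minus fresh was 0.48, 0.47 and 0.56. Over the 17328 genes the medians were -0.04, -0.03 and -0.01 for cryopreserved minus fresh and 0.00, 0.01 and -0.00 for CPA exposed minus fresh. The median fall was thus deepest in pool 2 and the median rise highest in pool 3. Of the 9 libraries, the cryopreserved library of pool 2 had the lowest TMM normalization factor (0.88) and, in the study, the lowest mapping rate. Whether these had a part in the deeper fall of pool 2 was not tested. Of the members, 103 had their largest fall in pool 2, 28 in pool 1 and 19 in pool 3, and 76 had their largest rise in pool 3, 43 in pool 2 and 31 in pool 1.

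**Figure D3:**
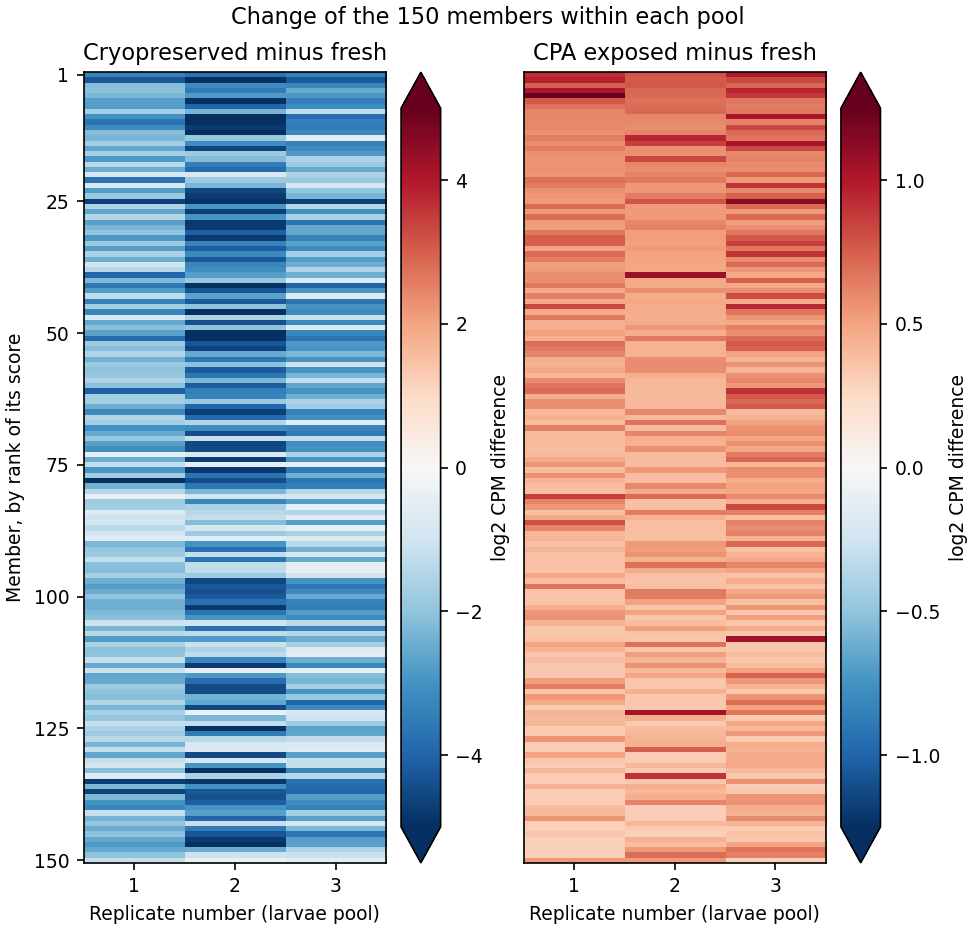
Log2 CPM difference of each of the 150 members (rows, by rank of the score) in pools 1, 2 and 3 (columns), for cryopreserved minus fresh on the left and CPA exposed minus fresh on the right. Blue is lower and red higher than in fresh larvae of the same pool, and the 2 colour scales differ. The left panel is darkest in pool 2, where the median is -3.38, and the right panel has medians of 0.48, 0.47 and 0.56.

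All 150 members passed the filter on low counts (at least 5 counts in at least 3 libraries), as did 23052 genes in all. A gene was called where the quasi-likelihood test of edgeR, fitted to all 9 libraries, gave an adjusted p under 0.05 with a log2 fold change beyond 1.5 in size. In cryopreserved against fresh larvae 95 members (63.3%) were called lower, beside 315 of all genes tested (1.37%), and in cryopreserved against CPA exposed larvae 127 members (84.7%), beside 446 of all genes (1.93%). The members made up 30.2% of the genes called lower against fresh larvae and 28.5% of those called lower against CPA exposed larvae. Without the fresh library of pool 1, 56 members were called lower than in fresh larvae, and without the cryopreserved library of pool 3, 61. Counting both directions, 287 and 340 of all genes were called in these 2 fits, against 507 with all libraries. The members' shares follow from the choice of the members, and nothing is read from them.

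In CPA exposed against fresh larvae no member and no gene of those tested (0%) was called higher by edgeR. An unadjusted p under 0.05 was found for 5 members and 65 genes in all, counting both directions. DESeq2 called 2 genes in all and 0 members, and limma-voom called 0. For most members the ranges of CPA exposed and fresh larvae overlapped between pools, and in 37 members (24.7%) all 3 CPA exposed libraries exceeded all 3 fresh libraries, beside 1.78% of all genes tested. In cryopreserved larvae, in contrast, all 3 libraries lay below all 3 fresh libraries for 134 members (89.3%, beside 12.2% of all genes) and below all 3 CPA exposed libraries for 145 (96.7%, beside 12.6%).

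How the rise stood against its error depended both on the pool block and on the libraries in the fit. In an edgeR fit of the 6 CPA exposed and fresh libraries with the pool number as a block, 138 members (92%) had a higher level in exposed larvae at an adjusted p under 0.05, beside 437 of all genes tested (1.9%), and 0 members reached a log2 fold change over 1.5. With the block and all 9 libraries, no gene passed at an adjusted p under 0.05, and 67 members and 517 genes in all had an unadjusted p under 0.05. Without the block, the fit of the 6 libraries gave an adjusted p of 0.999938 for each of the named members. The rule asks for a rise within every pool, so the paired counts are given as a description.

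The rule was also applied to the 6 libraries of 2 pools, normalised apart. The 150 genes with the highest scores were then looked up in the 3 libraries of the pool left out. Those libraries did not enter the scores. The rule itself was set with earlier results of these data known, so the shares are a description. In pool 1, 143 of the genes chosen on the other pools (95.3%) had their highest level in CPA exposed and their lowest in cryopreserved larvae. In pool 2 there were 139 (92.7%) and in pool 3 there were 135 (90%). Of all genes with at least 50 counts on average, 30.7% had this order in pool 1, 25.2% in pool 2 and 25.6% in pool 3.

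The genes chosen without a pool had a median log2 difference of cryopreserved minus fresh in that pool of -2.03 in pool 1, -3.03 in pool 2 and -1.95 in pool 3, beside -0.07, -0.03 and -0.05 over all genes. For CPA exposed minus fresh the medians were 0.39, 0.44 and 0.56, beside 0.00, 0.01 and -0.00. The quartiles of the chosen genes and of all genes did not overlap in either difference in any of the 3 pools. Each pool has 1 library per condition, so no test was made. The genes used for comparison were not matched to the chosen genes in level or fall. Both depth and mapping rate had the same order in every pool. The genes chosen on pools 2 and 3 included 97 of the 150 members, those chosen on pools 1 and 3 included 108, and those chosen on pools 1 and 2 included 107. With all libraries thinned to the smallest, an alternative added after the values were seen, the shares in this order were 96%, 91.3% and 88%, beside 29.7%, 24.3% and 24.6% of all genes.

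**Figure D4:**
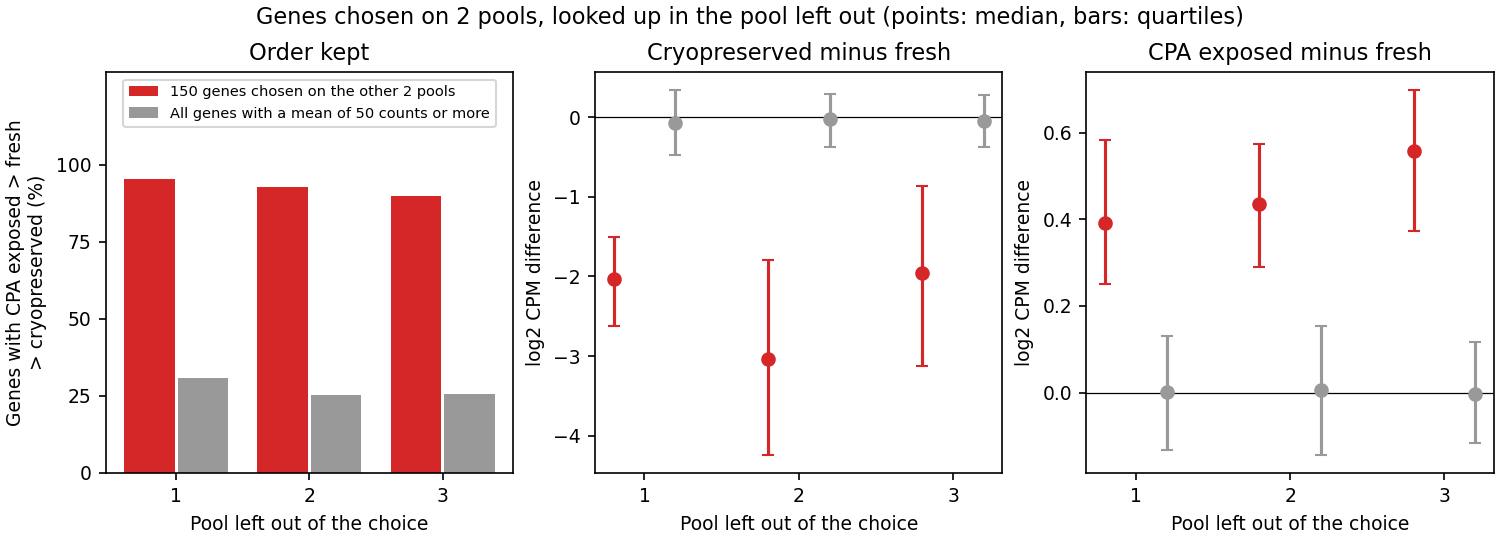
Genes chosen on 2 pools (red, 150 genes) and all genes with at least 50 counts on average (grey) in the pool left out (x axis, all panels). The left panel shows the share of genes in the order CPA exposed over fresh over cryopreserved (%), and the other panels show the medians with quartiles of the log2 CPM difference of cryopreserved minus fresh and CPA exposed minus fresh. The chosen genes keep the order in 95.3%, 92.7% and 90% of cases.

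The rule takes differences within a pool, and so does not use the fresh level of a member between pools, although the differences enter its cryopreserved and CPA exposed levels. In the edgeR fit with condition and pool, 72 members (48%) differed between pools at an adjusted p under 0.05, beside 9397 of all genes tested (40.8%) and 40.9% of the genes with at least 50 counts on average. The members' share was thus close to that of other genes. The error in this fit includes the differences used by the rule, so the share is given as a description.

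The ranks of the pools are given as a description, since those in cryopreserved and CPA exposed larvae hold the differences used by the rule. Pool 1 was the highest of the 3 in cryopreserved larvae for 102 members (68%, beside 29.4% of the 17328 genes), in CPA exposed larvae for 76 (50.7%, beside 30.1%) and in fresh larvae for 74 (49.3%, beside 31.2%). The lowest cryopreserved level was in pool 2 for 109 members (72.7%, beside 36.5%). The highest pool was the same in CPA exposed and fresh larvae for 132 members (88%, beside 77.5%), and the same in cryopreserved and fresh larvae for 70 (46.7%, beside 54.7%).

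The spread of the members between pools was largest in cryopreserved larvae. The SD of the log2 CPM over the 3 pools had a median of 0.89 in cryopreserved larvae, 0.39 in CPA exposed larvae and 0.41 in fresh larvae, beside 0.31, 0.29 and 0.26 over the 17328 genes. The cryopreserved levels hold the fall on which the members were selected, and the 17328 genes were not matched to the members in level or fall, so nothing is read from this difference. Few of the members were near the limit of counting, as 7 had at most 3 counts in any cryopreserved library, 18 had under 10 counts in any of them, and 0 had a count of 0 in any library. The mean count over the 9 libraries ran from 51.8 to 51224 with a median of 1131, beside 560 over the 17328 genes.

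Reads that fit several genes are shared out by Salmon, which leaves estimates that are not whole numbers. An estimate that was not whole in every library was found for 22 members (14.7%, beside 24.1% of the 17328 genes), and one that was whole in every library for 14 (9.33%, beside 12.4%). Among the named members, the estimate was not whole in 8 libraries for 105328843, 6 for 105335083, 3 for 105349083 and 2 for 109619713, so that part of their counts may come from reads shared with other genes.

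Of the members, 31 (20.7%) had a gene number within 3 of that of another member, beside 10 (6.67%) of the next 150 genes by score. No list of genes matched to the members in level or fall was compared, so nothing is read from this difference. The 31 members formed 13 runs, and the longest, noticed after the values were seen, held 6 members whose first and last numbers were 7 apart. These were the members of ranks 1, 2, 10, 39, 98 and 123. Their mean log2 differences of cryopreserved minus fresh were -3.46, -4.61, -4.22, -3.05, -3.53 and -1.74, and those of CPA exposed minus fresh were 0.89, 0.86, 0.61, 0.71, 0.47 and 0.40. The run thus included the 2 highest scores. In the same order, the estimates of its members were not whole in 1, 6, 5, 1, 2 and 9 libraries. Whether these genes lie side by side in the genome, and whether they share reads, was not tested.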

How the data were processed

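RNA-seq was done on 9 libraries, 1 for each of 3 conditions in 3 larvae pools. According to the methods, clean reads were aligned by the authors to the C. gigas genome and summarised by gene with Salmon 1.1. The deposited table holds estimated counts per gene, without normalization. Of its values 38.2% are not whole, so they were rounded.

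Genes reaching 5 counts in 3 or more libraries were tested, after TMM normalization, by edgeR 4.0.16 (R 4.3.3) with condition as the only factor. SEs are approximate (absolute log2 fold change over the square root of F). The adjusted p threshold was 0.05 and that of the absolute log2 fold change 1.5. Pools were tested by an F test with condition and pool as factors. The rule used log2 CPM with a prior count of 2, and fitted fold changes a prior count of 0.125. The numbers printed are those of the 2 members with the largest mean rise in exposed larvae and, among the others, the 2 with the largest mean fall. The members, lists and thresholds were chosen with earlier results of these data known.

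The series' design text says that each pool went through all 3 conditions, and same-numbered libraries deviated from their group means together in all 9 pairs (r from 0.513 to 0.863). Replicates of a condition differed by more than sampling noise. Counts are not independent molecules, and the floor of 3 counts, between 0.0586 and 0.149 CPM by library, covers counting error only. Alternatives were other scalings, filters, priors and thresholds, DESeq2 1.42.0, limma-voom (limma 3.58.1), the replicate block, thinning and each library left out. The scripts were tested on simulated data.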

Additional observations from a re-analysis of the deposited data

How the results depend on the processing

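The members called in each comparison and between pools, the members kept by the rule and their median differences were recomputed under the alternatives, and those not named here kept their direction and stayed within 1.5 times the count, or within the spread. Of the other counts, those in the pool left out were recomputed after thinning, and the rest were not. With 1 library left out, the members called lower in cryopreserved than in fresh larvae numbered 56 to 90 (56 without the fresh library of pool 1, 61 without the cryopreserved library of pool 3), against 95 with all, and in cryopreserved against CPA exposed larvae 100 to 116, against 127. All genes called in these fits, in both directions, numbered 287 to 459 against 507, and 435 to 617 against 693. Choosing on 2 pools kept 97 to 108 of the 150 members, 97 without pool 1, and the reason was not tested. Scaled by library size alone, without TMM, the median rise in exposed larvae was 0.46, beside a shift of the median of all genes to -0.07, and the median difference of cryopreserved minus fresh was -2.87 beside -0.22.

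With the replicate block, as paired pools, edgeR called 115 members lower than in fresh and 140 lower than in CPA exposed larvae. In both directions, 917 and 1119 of all genes tested were called with the block, against 507 and 693 without it. For CPA exposed against fresh, members at an adjusted p under 0.05 numbered 138 with the block and 6 libraries and 0 with the block and 9, and those at an unadjusted p under 0.05 numbered 67 with the block and 9 libraries and 5 without it. Over the alternatives the adjusted p of cryopreserved against fresh ran from 0.000768 to 0.267 for 109619713 and from 0.000424 to 0.182 for 105328843. DESeq2 also called both, with adjusted p-values of 0.00422 and 0.00105. Gene 105328843 was also called by limma-voom (0.0422) and by edgeR without the cryopreserved library of pool 1 (0.0313). The adjusted p-values of cryopreserved against CPA exposed ran from 1.36e-05 to 0.0694 for 109619713 and from 7.54e-07 to 0.0595 for 105328843. Those of 105349083 and 105335083 reached at most 0.0350 in either comparison.

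Groups of 3 libraries were too small to be searched for outlying samples.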
